A study of Mus musculus with 16 samples.

Results

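Trp53 and 9 of its target genes that act in cell cycle arrest, growth signalling and feedback were followed across mouse livers of 4 genotypes. The 10 genes were Trp53, Mdm2, Ccng1, Cdkn1a, Btg2, Plk2, Phlda3, Sesn1, Sesn2 and Trp53inp1, taken by symbol from a table of 30199 genes. All 10 were found, and all 10 averaged 10 or more normalized counts across the 16 livers, the bar that 15263 genes of the table met for testing. The livers came from female mice 5 months old, 4 mice per genotype and 1 library per mouse: heterozygous deletion of Ncoa5 (Ncoa5+/-), heterozygous deletion of Tip30 (Tip30+/-), both deletions (Ncoa5+/-Tip30+/-), and wild type. All mice ate a standard diet. The sources used here give neither the strain nor how the deletions were made. Ncoa5 encodes a coactivator of nuclear receptors, and Tip30 is another name for Htatip2, a gene studied as a tumour suppressor.

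The protein p53 is a transcription factor that is held at a low level by Mdm2, which marks it for degradation. On DNA damage and other stress it is stabilised, mainly without a change in its messenger RNA, and switches on genes that stop the cell cycle, restrain growth signalling, repair DNA or kill the cell. In liver this response restrains hepatocyte division and is known from injury, regeneration and tumour formation. Several targets act back on the pathway, which limits how long it stays on.

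Of the 10 genes, 8 passed the test as higher in Ncoa5+/- livers than in wild type, where 0.531% of all tested genes did. Phlda3 was 34.5-fold and Cdkn1a 22.7-fold higher, and Plk2, Ccng1, Btg2, Trp53inp1, Sesn2 and Mdm2 were 2.23-fold to 3.60-fold higher. The same 8 were also higher in Ncoa5+/-Tip30+/- livers than in Tip30+/- livers, a contrast of the same deletion in other mice. In that contrast 1.61% of all tested genes passed as higher. None of the 10 passed the test in Tip30+/- livers against wild type, where 0.0131% of all tested genes did in either direction. Trp53 itself lay within 506 to 656 normalized counts in all 16 livers.

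Depth was 24740706 to 37939978 whole reads per library, and mitochondrial genes took 3.42% to 5.81% of them. Reads of Htatip2 fell in the libraries labelled with its deletion, with a log2 difference from wild type of -1.41 ± 0.13 (SE) in Tip30+/- and -1.08 ± 0.13 in Ncoa5+/-Tip30+/- livers (limma, adjusted p = 5.88e-05 and 0.000231, n = 4 each). Reads of Ncoa5 did not separate the groups: they averaged 381 ± 35.1 normalized counts in Ncoa5+/- livers, 391 ± 23.5 in Ncoa5+/-Tip30+/- livers and 426 ± 42.1 in wild-type livers (SD, n = 4 each). The adjusted p for Ncoa5 was 0.658 in Ncoa5+/- and 0.527 in Ncoa5+/-Tip30+/- livers against wild type, and the 95% confidence interval of the log2 difference in Ncoa5+/- livers was -0.38 to 0.06. The deleted stretch of Ncoa5 is not stated, so reads over the whole gene do not check this label, and groups are called by their labels throughout. The livers are labelled as mainly hepatocytes, and summed markers of hepatocytes (Alb, Apoa1, Ttr, Tat, Cps1, Asgr1) overlapped between genotypes, at 2031120 to 2752970 in Ncoa5+/-, 2526000 to 2951460 in Tip30+/-, 1906920 to 2565600 in Ncoa5+/-Tip30+/- and 1985750 to 2946270 normalized counts in wild-type livers. Zhx2, which differs between mouse strains, was at 8.77 to 26.3 normalized counts in Ncoa5+/- livers 1 and 4 and wild-type livers 1 and 2, and at 166.5 or more in the other livers.

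The upstream sequences of 4 targets are shown because these genes had the largest differences or are the feedback arm, and because p53 acts by binding such stretches. Of the 10 genes, 9 had a promoter entry in RefSeq (GRCm38.p6), a window of 300 bases that runs from 250 bases before the annotated start to 50 bases after it. Both strands were searched for the 10-base p53 consensus decamer, which is found at least once in 8.36% of 32851 promoter windows. Capitals mark matches, and for Cdkn1a also the 10 bases beside the second match. Each sequence is printed 5′ to 3′ on the strand of its gene.
Cdkn1a, chr17:29090729-29091028, plus strand: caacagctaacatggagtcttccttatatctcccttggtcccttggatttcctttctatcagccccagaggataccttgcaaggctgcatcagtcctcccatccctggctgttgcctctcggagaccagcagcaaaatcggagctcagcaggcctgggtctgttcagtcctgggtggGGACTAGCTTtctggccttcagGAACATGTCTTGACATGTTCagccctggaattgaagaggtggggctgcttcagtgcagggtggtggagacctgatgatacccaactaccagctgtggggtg
Phlda3, chr1:135765835-135766134, plus strand: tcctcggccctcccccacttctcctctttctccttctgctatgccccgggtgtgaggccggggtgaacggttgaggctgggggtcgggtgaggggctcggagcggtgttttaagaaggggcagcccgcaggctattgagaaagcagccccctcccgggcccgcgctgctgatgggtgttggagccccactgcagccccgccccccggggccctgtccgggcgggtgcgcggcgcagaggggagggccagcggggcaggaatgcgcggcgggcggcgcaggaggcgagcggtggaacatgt
Ccng1, chr11:40755237-40755536, minus strand: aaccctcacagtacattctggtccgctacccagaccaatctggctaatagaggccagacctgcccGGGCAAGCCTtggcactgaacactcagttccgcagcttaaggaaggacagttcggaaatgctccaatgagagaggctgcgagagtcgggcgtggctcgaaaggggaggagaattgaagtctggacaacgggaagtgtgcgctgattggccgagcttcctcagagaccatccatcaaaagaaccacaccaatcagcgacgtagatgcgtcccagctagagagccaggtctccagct
Mdm2, chr10:117710709-117711008, minus strand: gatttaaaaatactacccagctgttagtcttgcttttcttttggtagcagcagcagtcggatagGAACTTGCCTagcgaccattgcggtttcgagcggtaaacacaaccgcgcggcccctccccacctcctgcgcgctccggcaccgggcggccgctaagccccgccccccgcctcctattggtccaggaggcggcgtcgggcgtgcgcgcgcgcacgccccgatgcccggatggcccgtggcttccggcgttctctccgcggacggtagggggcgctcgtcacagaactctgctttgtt
The Cdkn1a window held 2 decamers, which begin at -73 and -51 counted from the start, 13 or fewer bases apart. Such a pair occurs in 0.0731% of all windows. The second decamer is directly followed by 10 bases that depart from the consensus at 1 base, so that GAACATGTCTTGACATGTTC at chr17:29090928-29090947 reads as a paired site with no spacer. Paired sites with no spacer and at most 2 departures outside the core occur in 0.158% of windows. The last base of this site lies 2822 bases before the second annotated start of Cdkn1a, whose own window held no decamer. Ccng1 and Mdm2 had 1 decamer each, at -185 and -186. Trp53 and 1 of the 2 windows of Sesn1 also held 1, and the windows of Phlda3, Btg2, Sesn2 and Plk2 held no whole decamer. The Phlda3 window ends in gaacatgt, which follows the consensus as far as it runs. Bases beyond the windows, introns among them, were not searched for any gene, so sites elsewhere in a gene are not covered. These are matches of letters only, and no binding was measured.

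Trp53 (chr11:69580359-69591873, plus strand, GRCm38 with GENCODE M21, as for all loci that follow) passed in none of the comparisons. It had 562, 656, 607 and 577 normalized counts in Ncoa5+/- livers, 614, 572, 506 and 627 in Tip30+/- livers, 600.2, 641, 593 and 530.1 in Ncoa5+/-Tip30+/- livers, and 595, 625, 611 and 589 in wild-type livers. Each pair of groups overlapped. The log2 difference from wild type was -0.01 in Ncoa5+/- livers (95% confidence interval -0.21 to 0.19), and -0.04 in Ncoa5+/-Tip30+/- livers (interval -0.24 to 0.16). These limits bound the change of the transcript to 0.863-fold to 1.14-fold in Ncoa5+/- livers, and the protein was not measured.

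Mdm2 (chr10:117688875-117710758, minus strand) encodes the ubiquitin ligase that degrades p53 and is itself switched on by p53. It had 1643, 968, 1133 and 1124 normalized counts in Ncoa5+/- livers, 564, 625, 543 and 562 in Tip30+/- livers, 1044, 1822, 1697 and 1068 in Ncoa5+/-Tip30+/- livers, and 494, 472, 638 and 550.5 in wild-type livers. Each of the 8 livers with the Ncoa5 deletion was above each of the 8 without it. Mdm2 rose by a log2 of 1.16 ± 0.18 in Ncoa5+/- livers against wild type (limma on log2 of the value plus 1, Benjamini-Hochberg over all genes, adjusted p = 0.004) and by 1.35 ± 0.18 in Ncoa5+/-Tip30+/- livers against wild type (adjusted p = 0.00068).

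Ccng1 (chr11:40748552-40755311, minus strand) encodes cyclin G1, which brings a phosphatase to Mdm2 and so belongs to the feedback on p53. It had 3773, 1968, 2570.4 and 2404 normalized counts in Ncoa5+/- livers, 677, 626, 806 and 860.2 in Tip30+/- livers, 2114, 2625, 3189 and 1668 in Ncoa5+/-Tip30+/- livers, and 861, 795, 609 and 818 in wild-type livers. The lowest liver with the Ncoa5 deletion was well above the highest without it, so the groups did not overlap. Ccng1 was 3.40-fold higher in Ncoa5+/- livers than in wild type (interval 2.52 to 4.58, adjusted p = 0.000214) and 3.05-fold higher in Ncoa5+/-Tip30+/- livers than in wild type (interval 2.26 to 4.11, adjusted p = 0.000421).

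**Figure D1:**
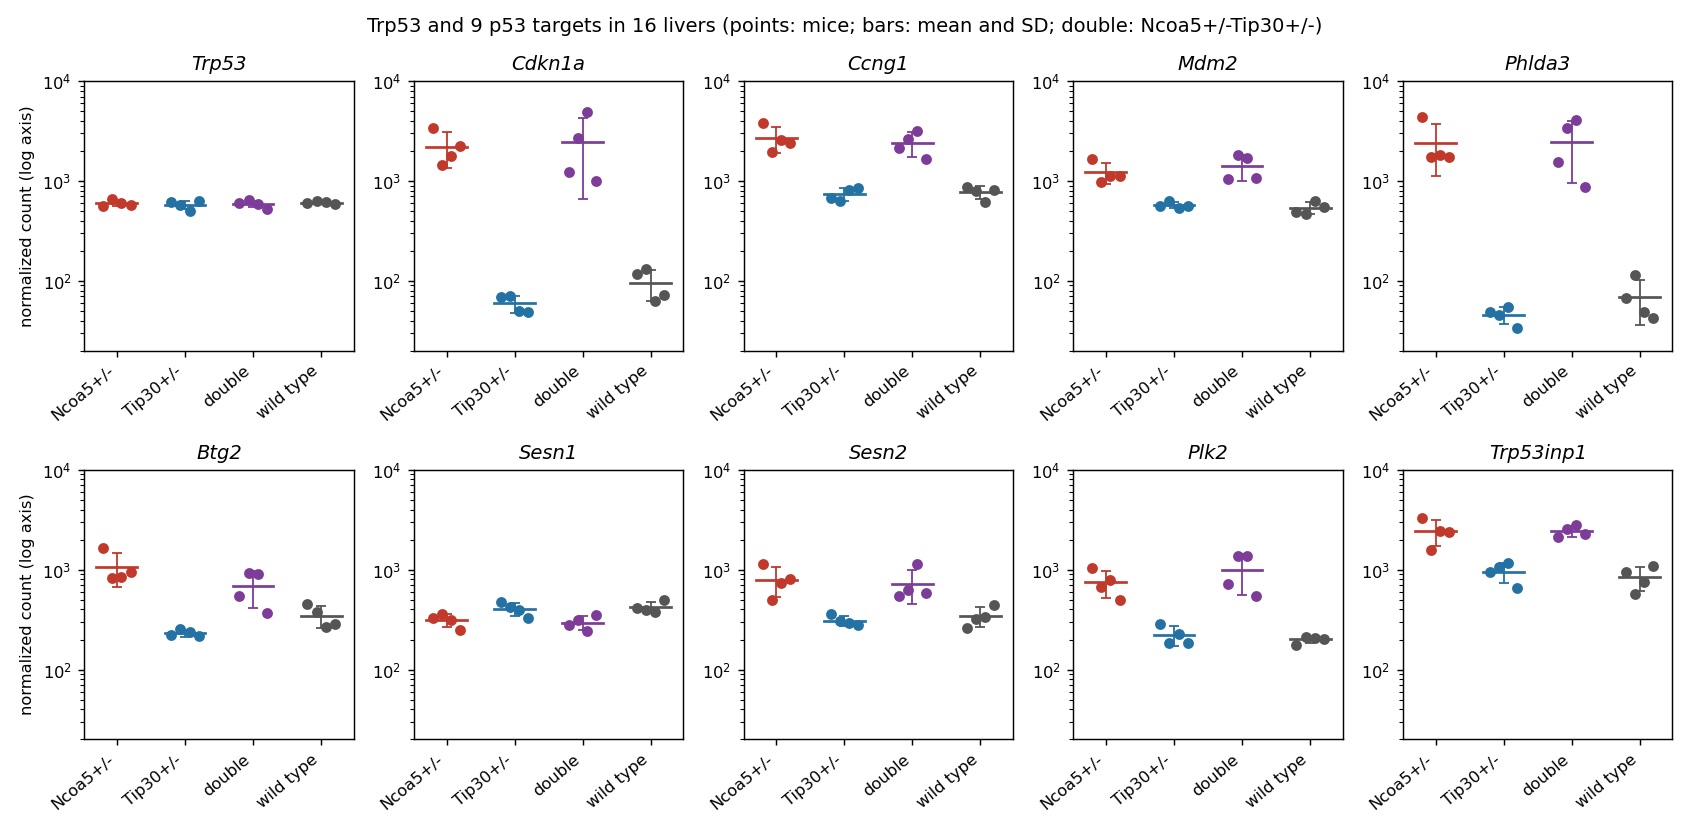
Normalized counts (log axis) of the 10 genes in each of the 16 livers, by genotype, with points for mice and bars for the mean and SD of 4 livers; "double" stands for Ncoa5+/-Tip30+/-. Cdkn1a and Phlda3 are at 879.7 or more in every liver with the Ncoa5 deletion and at 130.4 or less in every other liver, whereas Trp53 is level.

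Cdkn1a (chr17:29090976-29100727, plus strand) encodes p21, the inhibitor of cyclin-dependent kinases through which p53 stops the cell cycle. It had 3382, 1434, 1785 and 2244 normalized counts in Ncoa5+/- livers, 69.1, 70.3, 49.6 and 49.2 in Tip30+/- livers, 1232, 2666, 4893 and 1006 in Ncoa5+/-Tip30+/- livers, and 117, 130.4, 62.7 and 73.1 in wild-type livers. The lowest liver with the Ncoa5 deletion was far above the highest without it, and the Ncoa5+/-Tip30+/- livers spread the most, with a coefficient of variation of 73.0%. The log2 difference from wild type was 4.51 ± 0.43 in Ncoa5+/- livers (adjusted p = 0.000186) and 4.44 ± 0.43 in Ncoa5+/-Tip30+/- livers (adjusted p = 0.000118). Cdkn1a shares 273 exon bases, 7.68% of its exon length, with a locus on the opposite strand, and strand marking is not stated, so reads of these bases are uncertain.

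Btg2 (chr1:134075170-134079120, minus strand) encodes an antiproliferative protein that links p53 to control of messenger RNA decay and cell division. It had 1656, 821, 835 and 942 normalized counts in Ncoa5+/- livers, 222, 256, 237 and 215 in Tip30+/- livers, 551, 933, 911 and 371 in Ncoa5+/-Tip30+/- livers, and 451, 379, 264 and 287 in wild-type livers. Liver 4 of the Ncoa5+/-Tip30+/- group lay within the wild-type range, so these groups overlapped, while the Ncoa5+/- and wild-type groups did not. Btg2 was 3.01-fold higher in Ncoa5+/- livers than in wild type (interval 1.99 to 4.55, adjusted p = 0.0143), a call that was lost without wild-type liver 3 (adjusted p = 0.0642) or 4 (0.0617). In Ncoa5+/-Tip30+/- livers it did not pass against wild type, at 1.91-fold (interval 1.26 to 2.89, adjusted p = 0.0803). It passed there with DESeq2 (adjusted p = 0.0105) and when liver 4 was left out (limma, adjusted p = 0.0172).

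Plk2 (chr13:110395046-110400844, plus strand) encodes a polo-like kinase of the centriole cycle that p53 can switch on. It had 1036, 678, 790.2 and 492 normalized counts in Ncoa5+/- livers, 288, 184, 228 and 185 in Tip30+/- livers, 712, 1365, 1361 and 539 in Ncoa5+/-Tip30+/- livers, and 178, 211, 209 and 204 in wild-type livers. The groups with and without the Ncoa5 deletion did not overlap, and wild-type livers were close together, with a coefficient of variation of 7.65%, against 43.4% in Ncoa5+/-Tip30+/- livers. Plk2 rose 3.60-fold in Ncoa5+/- livers against wild type (adjusted p = 0.0034) and 4.58-fold in Ncoa5+/-Tip30+/- livers against wild type (adjusted p = 0.000504).

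Phlda3 (chr1:135766119-135769136, plus strand) encodes a small protein of a single pleckstrin homology domain that keeps Akt from the membrane and so restrains growth signalling. It had 4371, 1755.5, 1819.8 and 1744 normalized counts in Ncoa5+/- livers, 48.6, 45.2, 54.5 and 33.8 in Tip30+/- livers, 1533, 3389.7, 4114 and 880 in Ncoa5+/-Tip30+/- livers, and 67.5, 115, 48.7 and 43.0 in wild-type livers. No other of the 10 genes differed as much, and no liver with the Ncoa5 deletion came near the range of the others. The log2 difference from wild type was 5.11 ± 0.47 in Ncoa5+/- livers (adjusted p = 0.000135) and 5.01 ± 0.47 in Ncoa5+/-Tip30+/- livers (adjusted p = 8.46e-05).

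Sesn2 (chr4:132492032-132510501, minus strand) encodes a sestrin, a stress protein that restrains mTOR complex 1 through the leucine-sensing branch and acts with AMPK. It had 1129, 494, 742 and 810.3 normalized counts in Ncoa5+/- livers, 359.9, 305, 296 and 278 in Tip30+/- livers, 550.2, 631, 1130.1 and 584 in Ncoa5+/-Tip30+/- livers, and 261, 319.7, 339 and 446 in wild-type livers. The groups with and without the Ncoa5 deletion did not overlap, but the gap was small. Sesn2 rose 2.27-fold in Ncoa5+/- livers against wild type (adjusted p = 0.0396) and 2.06-fold in Ncoa5+/-Tip30+/- livers against wild type (adjusted p = 0.0343), and the first call held in 2 and the second in 4 of the 8 analyses that left out 1 liver.

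Sesn1 (chr10:41809935-41908424, plus strand), encodes a related sestrin and is known as a p53 target, and it passed in neither direction. It had 328, 356, 312 and 247 normalized counts in Ncoa5+/- livers, 469.9, 426, 398 and 326 in Tip30+/- livers, 277, 310.5, 241 and 352 in Ncoa5+/-Tip30+/- livers, and 409, 399, 380.1 and 496 in wild-type livers. Every liver with the Ncoa5 deletion was below every wild-type liver, while the Tip30+/- livers overlapped both. The log2 difference from wild type was -0.44 ± 0.15 in Ncoa5+/- livers (adjusted p = 0.258) and -0.52 ± 0.15 in Ncoa5+/-Tip30+/- livers (adjusted p = 0.0677), neither of which passed. The second passed with DESeq2 (adjusted p = 0.0291), without Ncoa5+/-Tip30+/- liver 4 (0.0381) and, just under the threshold, with the mouse number as a covariate (0.05 as rounded).

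Trp53inp1 (chr4:11156431-11174379, plus strand) encodes a stress protein that takes part in p53 activation and in autophagy. It had 3319, 1559, 2464 and 2389 normalized counts in Ncoa5+/- livers, 949.9, 1059.7, 1158 and 663 in Tip30+/- livers, 2101, 2544, 2829.6 and 2267 in Ncoa5+/-Tip30+/- livers, and 947, 576, 755 and 1085 in wild-type livers. Every liver with the Ncoa5 deletion was above every liver without it. It spread least among the genes that rose within the Ncoa5+/-Tip30+/- livers, with a coefficient of variation of 13.1%. Trp53inp1 was 2.87-fold higher in Ncoa5+/- livers than in wild type (interval 2.05 to 4.02, adjusted p = 0.00326) and 2.96-fold higher in Ncoa5+/-Tip30+/- livers than in wild type (interval 2.11 to 4.14, adjusted p = 0.00193).

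Counted together, 8 of the 10 genes passed higher in Ncoa5+/- livers against wild type and 0 lower, where 0.531% of all tested genes passed higher and 0.0262% lower. The median log2 difference of the 10 was 1.56, against -0.01 over all tested genes. For 8 genes every Ncoa5+/- liver was above every wild-type liver, a pattern found in 3.25% of all tested genes, and for Sesn1 every one was below, found in 2.42%. In Ncoa5+/-Tip30+/- livers against wild type, 7 passed higher and 0 lower, where 1.4% of tested genes passed higher and 1.27% lower. Here 7 genes were above without overlap (4.7% of tested genes) and Sesn1 was below (6%). The exact permutation test of a single gene, 2-sided over 70 arrangements of 8 livers, gave its smallest possible p of 0.0286 wherever groups did not overlap. These contrasts with wild type share the same 4 wild-type livers, and the 10 genes were chosen with earlier results of these data known.

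The contrast of Ncoa5+/-Tip30+/- with Tip30+/- livers tests the Ncoa5 deletion on the Tip30+/- background and shares no mouse with the contrast of Ncoa5+/- and wild type. Here too 8 genes passed higher and 0 lower, where 1.61% of tested genes passed higher and 1.47% lower, and the 8 groups did not overlap, as for 7.1% of tested genes in this direction. Phlda3 was 45.4-fold (interval 22.7 to 90.9) and Cdkn1a 33.6-fold (interval 17.6 to 64.2) higher in Ncoa5+/-Tip30+/- than in Tip30+/- livers, each with an adjusted p of 3.21e-05. The log2 differences of the other 6 were 2.07 for Plk2, 1.66 for Ccng1, 1.47 for Btg2, 1.37 for Trp53inp1, 1.25 for Mdm2 and 1.16 for Sesn2, with adjusted p from 0.000322 to 0.0226. Btg2 lost its call without Ncoa5+/-Tip30+/- liver 2 (adjusted p = 0.0571), and Sesn2 held in 3 of the 8 analyses that left out 1 liver. Sesn1 differed by -0.46 (adjusted p = 0.0904) and Trp53 by 0.03 (adjusted p = 0.88).

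**Figure D2:**
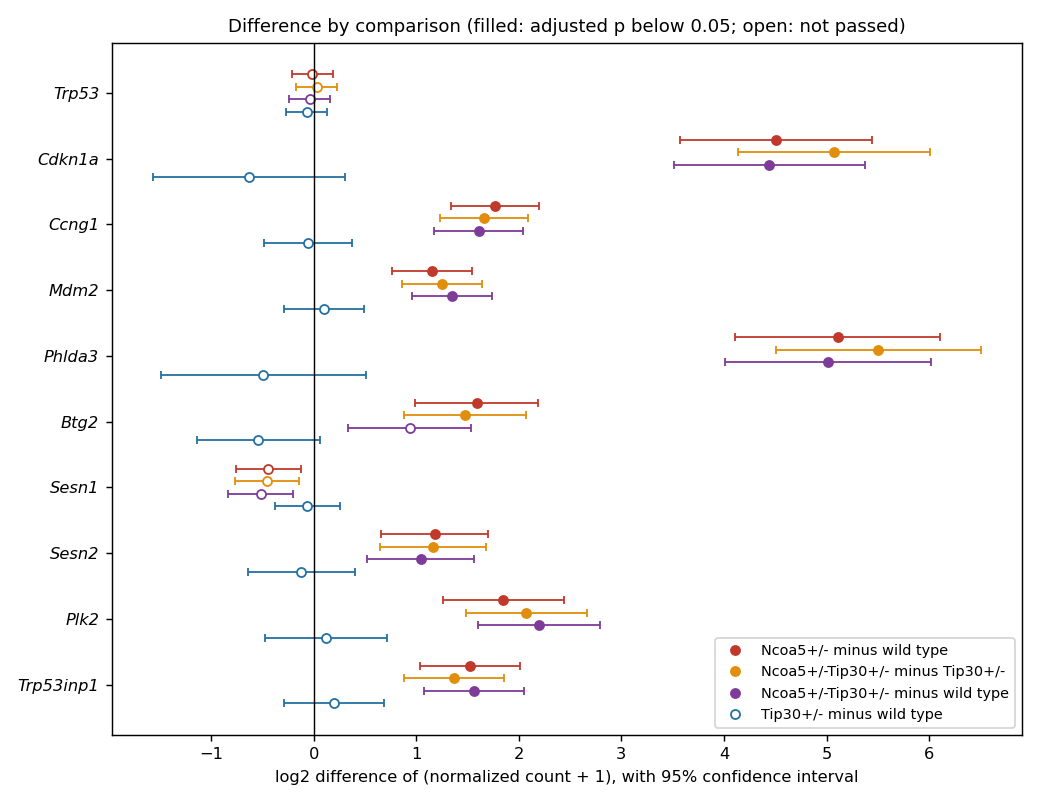
Log2 differences of the 10 genes with 95% confidence intervals in 4 comparisons, filled where the adjusted p is below 0.05 and open where it is not. The 3 contrasts with the Ncoa5 deletion lie between 0.94 and 5.51 for 8 genes, and the intervals of Tip30+/- against wild type all include 0.

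The Tip30 deletion alone gave no call among the 10 genes with limma, edgeR or DESeq2 (unadjusted p below 0.05 for 0 of 10), and 0.0131% of tested genes, 2 in number, passed in either direction (unadjusted p below 0.05: 1121 genes). The median of the 10 was -0.06 on the log2 scale, against 0.01 over all tested genes. Btg2 had the only groups that did not overlap: all 4 Tip30+/- livers (215 to 256 normalized counts) were below all 4 wild-type livers (264 to 451), a pattern in this direction of 2.44% of tested genes. Its log2 difference of -0.54 (interval -1.14 to 0.06) had an adjusted p of 0.721 and an exact permutation p of 0.0286. Cdkn1a differed by -0.63 (interval -1.56 to 0.30) and Phlda3 by -0.49 (interval -1.49 to 0.51), with overlapping groups. Adding the Tip30 deletion to the Ncoa5 deletion gave no call among the 10 with these tools either (unadjusted p below 0.05 for 1 of 10, Btg2), where 0.0197% of tested genes, 3 in number, passed (unadjusted p below 0.05: 1363 genes). In that contrast Btg2 differed by -0.65 (interval -1.25 to -0.06, adjusted p = 0.524). Whether the response to the Ncoa5 deletion differed between the Tip30 backgrounds was tested as an interaction, which 0% of tested genes passed (0 genes with limma, 1 with DESeq2; unadjusted p below 0.05: 650 genes). The interaction was 0.57 for Cdkn1a (interval -0.75 to 1.88) and 0.40 for Phlda3 (interval -1.02 to 1.81). Differences between backgrounds of up to a log2 of 1.88 for Cdkn1a and 1.81 for Phlda3 are thus within these limits.

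Livers of the same genotype differed in how far the 8 genes rose. Their mean log2 difference from the wild-type mean was 2.95 in liver 1 of the Ncoa5+/- group and 1.93 to 2.24 in its other 3 livers. In the Ncoa5+/-Tip30+/- group it was 2.90 in liver 3, 2.61 in liver 2, 1.92 in liver 1 and 1.65 in liver 4. It lay between -0.36 and -0.08 in Tip30+/- livers and between -0.17 and 0.11 in wild-type livers. Ncoa5+/- liver 1 was the highest of its genotype for all 8 genes, and Ncoa5+/-Tip30+/- livers 3 and 2 were the highest for 5 and 3 of them. Among the 8 livers with the Ncoa5 deletion, centred on the mean of each genotype, the 28 pairs of these genes correlated with r from 0.53 to 0.98 and a median of 0.87. Among the 8 livers without it the median was -0.02, with a range of -0.77 to 0.82. Trp53 correlated with the 8 genes in the livers with the deletion with a median r of 0.08, and Sesn1 with a median r of -0.33. These values are descriptions over 8 livers, and the genes share each liver's library and scaling.

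**Figure D3:**
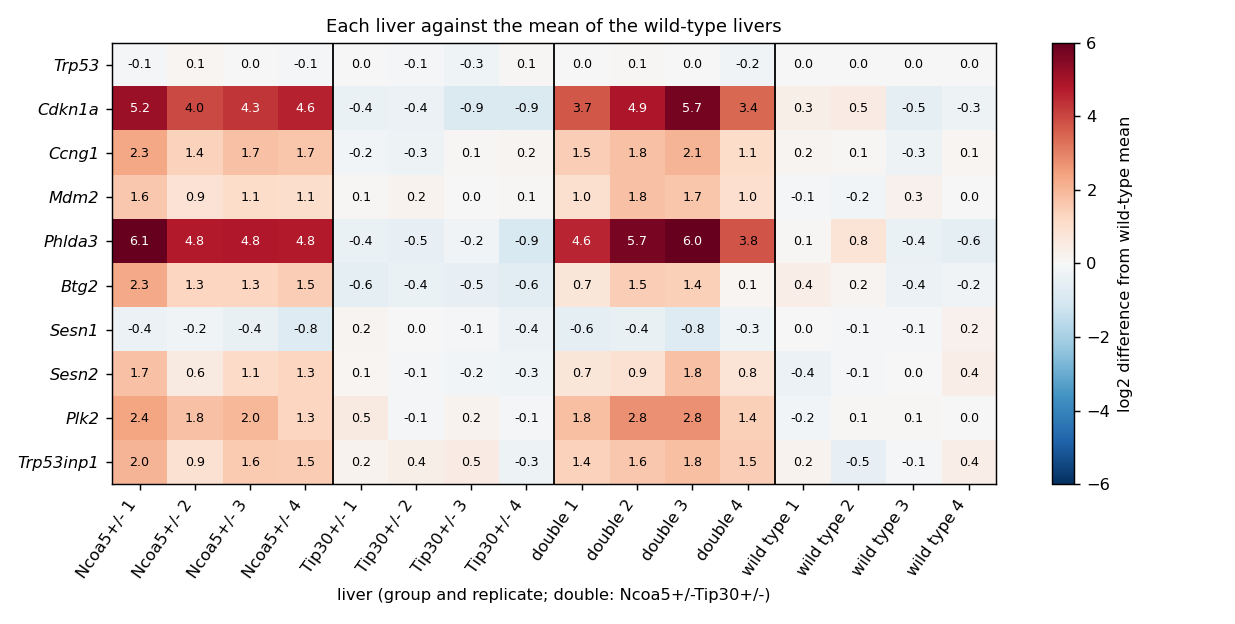
Log2 difference of each liver from the wild-type mean for the 10 genes, with livers in columns by genotype. Red marks higher and blue lower values: the 8 genes are high in all 4 Ncoa5+/- livers, most of all in liver 1, and in the Ncoa5+/-Tip30+/- group most of all in livers 2 and 3, with Btg2 near 0 in liver 4.

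Outside the 10 genes, those whose log2 values followed Cdkn1a most closely over the 8 livers with the Ncoa5 deletion, among 11870 genes with a mean of at least 50, were Gstp2 (r = 0.985), Ly6e (0.978), Gria3 (0.978), Nudt18 (0.959) and Zmat3 (0.958). Spearman's rho ran from 0.929 to 0.976. These are the largest of 11870 values of r, each over only 8 livers. How large r becomes by chance in such a search was not tested. Gria3, a subunit of a glutamate receptor, averaged 414 normalized counts in Ncoa5+/-, 513 in Ncoa5+/-Tip30+/-, 13.3 in Tip30+/- and 16.7 in wild-type livers. It therefore met the mean of 50 only through the livers with the Ncoa5 deletion. Reads of Gstp2, a glutathione transferase, may be shared with its close copies.

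Levels per length, as TPM (transcripts scaled to a fixed sum per library) computed from the normalized counts and the exon length of GENCODE M21, ranked the 10 genes differently in each group. Phlda3 was the first of the 10 in Ncoa5+/- livers, at 112 ± 53.9 TPM, and in Ncoa5+/-Tip30+/- livers, at 110 ± 76.0 TPM, but the eighth in wild-type livers, at 3.17 ± 1.76 TPM (SD, n = 4 each). Cdkn1a was the third in Ncoa5+/- livers with 45.1 ± 15.0 TPM and second in Ncoa5+/-Tip30+/- livers with 48.3 ± 40.6 TPM, and the last of the 10 in wild-type livers with 1.93 ± 0.79 TPM. Ccng1 was at 55.4 ± 13.4 TPM in Ncoa5+/- livers and led in wild-type livers at 15.5 ± 2.54 TPM. In Ncoa5+/- livers Phlda3, at 81.9 to 193 TPM, lay above Ccng1, at 42.3 to 73.8 TPM, and Cdkn1a, at 30.5 to 65.4 TPM, without overlap, and the last pair overlapped. The ranges of all 3 genes overlapped in Ncoa5+/-Tip30+/- livers, so their order is not fixed there. Trp53 was ninth in Ncoa5+/- livers at 10.9 ± 1.16 TPM and second in wild-type livers at 10.6 ± 1.09 TPM.

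Other genes of the pathway were taken as lists, chosen with earlier results of these data known. Of 23 tested genes among 24 other p53 targets, which act in cell death, repair and metabolism, 9 rose and 0 fell in Ncoa5+/- livers against wild type, and 11 rose and 0 fell in Ncoa5+/-Tip30+/- livers against wild type. Over all tested genes, 0.531% passed higher and 0.0262% lower in the first contrast, and 1.4% higher and 1.27% lower in the second. The median log2 difference of the 23 genes was 0.64 and 0.73 in these contrasts, against -0.01 over all tested genes in each. Without the 4 livers low in Zhx2 the calls were 4 and 8, and the counts over all tested genes in that setting are given at the end. Eda2r, a receptor of the tumour necrosis factor family, averaged 198 ± 32.3 normalized counts in Ncoa5+/- livers and 175 ± 91.5 in Ncoa5+/-Tip30+/- livers, against 6.54 ± 3.51 in wild-type livers, with log2 differences of 4.87 and 4.50 (adjusted p = 5.79e-05 and 7.82e-05). In Tip30+/- livers Eda2r averaged 4.81 ± 2.15. It met the mean of 10 required for testing only through the livers with the Ncoa5 deletion, and its differences rest on low counts in wild type. The death receptor gene Tnfrsf10b rose by 3.52 in Ncoa5+/- livers (adjusted p = 0.00037). It averaged 182 ± 54.4 normalized counts there and 149 ± 79.3 in Ncoa5+/-Tip30+/- livers, against 16.3 ± 9.09 in wild-type livers. Aen, a nuclease of apoptosis, rose by 1.48 in Ncoa5+/- and 1.44 in Ncoa5+/-Tip30+/- livers, and Polk, a DNA polymerase that bypasses lesions, by 1.26 and 1.48 (adjusted p from 0.000214 to 0.00254). Bax, which opens the mitochondrial outer membrane, rose by 1.37 in Ncoa5+/-Tip30+/- livers (adjusted p = 0.000189). It averaged 1314 ± 346 normalized counts there and 997 ± 110 in Ncoa5+/- livers, against 499.6 ± 64.4 in wild-type livers. In Ncoa5+/-Tip30+/- against Tip30+/- livers 11 of the list rose and 1 fell, where 1.61% of tested genes passed higher and 1.47% lower. The one that fell was Perp, a membrane protein of cell adhesion and apoptosis, with a log2 difference of -0.54 (adjusted p = 0.0425).

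Of 13 tested genes among 16 that sense damage or otherwise act upstream of p53, 0 passed in Ncoa5+/- and 0 in Ncoa5+/-Tip30+/- livers against wild type with limma and with edgeR (unadjusted p below 0.05 for 1 and 2), and DESeq2 called 0 and 1. The median log2 difference of the list was -0.09 and -0.13 in these contrasts, against -0.01 over all tested genes in each. The smallest p in Ncoa5+/- livers belonged to the acetyltransferase Ep300, with a log2 difference of -0.26 (adjusted p = 0.44), and the deubiquitinase Usp7, with -0.22 (adjusted p = 0.526). In Ncoa5+/-Tip30+/- livers Mdm4, the partner of Mdm2 in holding p53 back, differed from wild type by 0.44 (adjusted p = 0.0634), and Usp7 by -0.25 (adjusted p = 0.201). Mdm4 was also the 1 gene of this list that passed in Ncoa5+/-Tip30+/- against Tip30+/- livers, by 0.51 (adjusted p = 0.0342).

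The cell cycle machinery that p21 acts on, 21 genes of cyclins, kinases, the retinoblastoma family and replication, had 0 calls in Ncoa5+/- and 0 in Ncoa5+/-Tip30+/- livers against wild type with limma and edgeR (unadjusted p below 0.05 for 3 and 2), and 1 in each with DESeq2. The median log2 difference of these 21 genes was 0.52 and 0.12, against -0.01 over all tested genes in each contrast. The gene with the smallest p was Ccnd1 (cyclin D1), at 5129 ± 326 normalized counts in Ncoa5+/- and 3642 ± 2402 in Ncoa5+/-Tip30+/- livers, against 1721 ± 254 in wild-type livers. Its log2 differences of 1.59 and 0.90 did not pass (adjusted p = 0.0566 and 0.143). Every liver of both groups was above every wild-type liver, as for 3.25% of tested genes in Ncoa5+/- and 4.7% in Ncoa5+/-Tip30+/- livers. Next came Mybl2, a transcription factor of the cell cycle, with 0.84 in Ncoa5+/- livers (adjusted p = 0.37), and Rbl2, a member of the retinoblastoma family, with -0.41 in Ncoa5+/-Tip30+/- livers (adjusted p = 0.21). In Ncoa5+/-Tip30+/- against Tip30+/- livers Ccnd1 passed, with 1.53 (adjusted p = 0.0304), the 1 call of the list with limma and with edgeR. DESeq2 called 4 genes in this contrast, and without the 4 livers low in Zhx2 limma called 0.

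Of 17 genes found among 18 in Akt, AMPK and mTOR signalling, where Phlda3 and the sestrins act, 1 rose and 0 fell in Ncoa5+/- livers, and 2 rose and 1 fell in Ncoa5+/-Tip30+/- livers, each against wild type. Over all tested genes, 0.531% passed higher and 0.0262% lower in Ncoa5+/- livers, and 1.4% higher and 1.27% lower in Ncoa5+/-Tip30+/- livers. DESeq2 called 2 and 3 genes of this list, and without the 4 livers low in Zhx2 limma called 1 and 1. The first was Ddit4l, a stress-induced inhibitor of mTOR complex 1, with 193 ± 128 normalized counts in Ncoa5+/- livers and 233 ± 130.1 in Ncoa5+/-Tip30+/- livers, against 11.6 ± 2.01 in wild-type livers. Its log2 difference was 3.78 in Ncoa5+/- livers (adjusted p = 0.000186) and 4.02 in Ncoa5+/-Tip30+/- livers (adjusted p = 8.06e-05). In Ncoa5+/-Tip30+/- livers its relative Ddit4 also rose, by 0.92 (adjusted p = 0.0343), and the kinase gene Akt1 fell by 0.48 (adjusted p = 0.0254). Ddit4 averaged 397 ± 112 normalized counts in Ncoa5+/- and 391 ± 99.6 in Ncoa5+/-Tip30+/- livers, against 206 ± 52.1 in wild-type livers, and its log2 difference of 0.94 in Ncoa5+/- livers did not pass (adjusted p = 0.0693). Among 12 tested relatives of the 10 genes, such as other sestrins, polo-like kinases and Cip/Kip inhibitors, 0 passed in either group against wild type with limma and edgeR (unadjusted p below 0.05 for 1 and 3), and DESeq2 called 0 and 2. Sesn3, another sestrin, differed by -0.49 in Ncoa5+/- livers (adjusted p = 0.411) and by -0.78 in Ncoa5+/-Tip30+/- livers (adjusted p = 0.0509), and the mitotic kinase gene Plk1 by 0.96 in Ncoa5+/- livers (adjusted p = 0.558).

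In Tip30+/- livers against wild type, 0 genes of these 5 lists passed with limma, edgeR or DESeq2. The genes of smallest p were Perp at 0.37 and Tnfrsf10b at -1.05 among other targets (adjusted p = 0.596 and 0.636), and Trp53bp1 at -0.23 and Chek2 at -0.39 upstream (0.783 and 0.793). In the cell cycle list they were Top2a at -0.91 and Rbl1 at -0.84 (0.658 and 0.729), in the Akt, AMPK and mTOR list Wdr24 at -0.14 and Akt1 at -0.13 (0.805 and 0.823), and among relatives Cdkn1c at -0.38 and Plk1 at -0.49 (0.798 and 0.862).

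**Figure D4:**
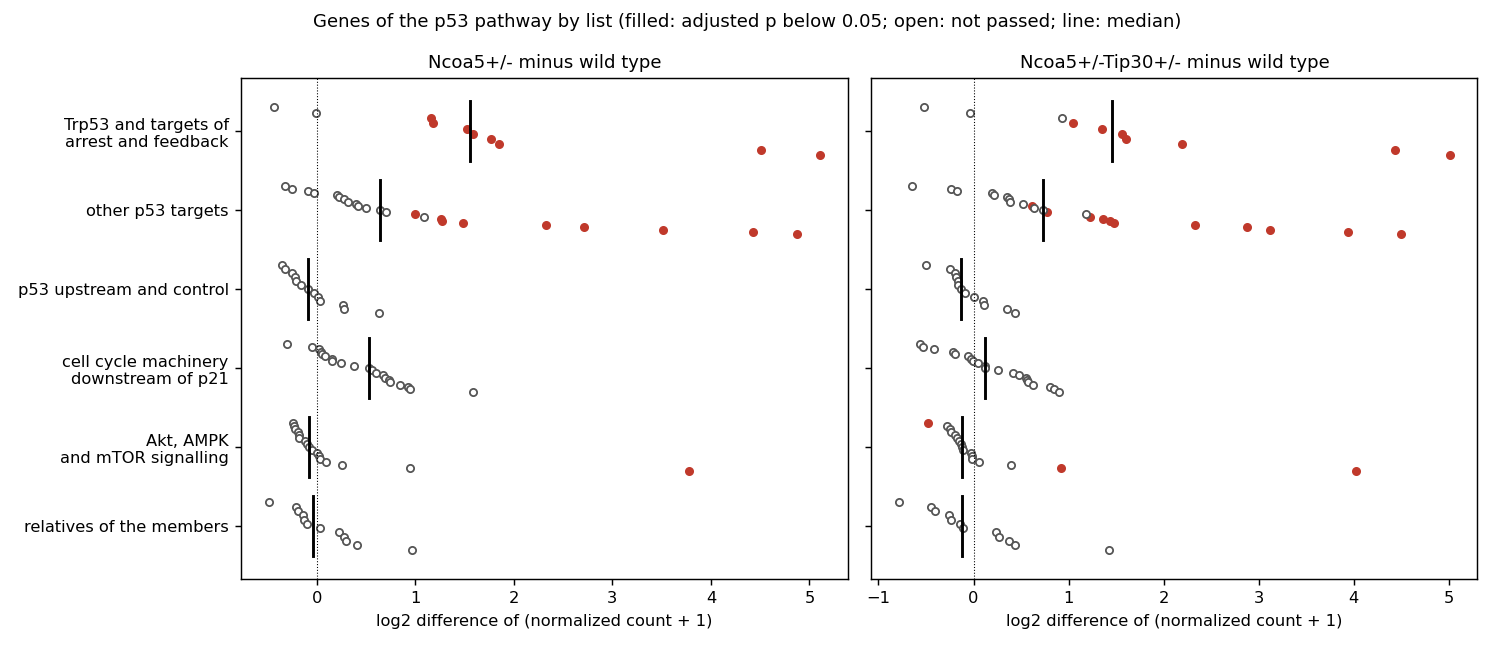
Log2 differences from wild type of the genes in each list, for Ncoa5+/- (left) and Ncoa5+/-Tip30+/- livers (right), filled where the adjusted p is below 0.05, with a line at each list's median. Most calls are in the first 2 lists, of 10 and 23 tested genes, with 8 and 9 in Ncoa5+/- livers and 7 and 11 in Ncoa5+/-Tip30+/- livers. Over all tested genes, 0.531% and 1.4% passed higher in these 2 contrasts. The lists were chosen with earlier results of these data known.

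Markers of other cells were read beside these results, since in whole tissue fewer cells of a type and less RNA per cell cannot be told apart. The 6 markers of T and NK cells summed to 123 to 218 normalized counts in Ncoa5+/- and 93.8 to 216 in Ncoa5+/-Tip30+/- livers, against 44.0 to 80.7 in Tip30+/- and 35.3 to 88.3 in wild-type livers, so these sums moved with the Ncoa5 deletion as the 8 genes did. Of the 6, 83.3% had a log2 difference from wild type above 0 in Ncoa5+/- and 100% in Ncoa5+/-Tip30+/- livers. Cd8a and Nkg7 passed in Ncoa5+/- livers against wild type, with log2 differences of 3.20 and 1.65 (adjusted p = 0.00517 and 0.0117), and Cd8a in Ncoa5+/-Tip30+/- livers, with 2.97 (adjusted p = 0.00651). Cd8a averaged 59.2 normalized counts in Ncoa5+/- and 49.6 in Ncoa5+/-Tip30+/- livers, against 4.87 in Tip30+/- and 6.25 in wild-type livers. It met the mean of 10 required for testing only through the livers with the Ncoa5 deletion. Nkg7 averaged 35.1 in Ncoa5+/- and 10.4 in wild-type livers. Over all tested genes, 0.531% and 1.4% passed higher in these contrasts. The part of T and NK cells in the rise of the 8 genes was not tested. The mitochondrial share of reads was 3.42% to 5.59% in Ncoa5+/- and 3.61% to 5.5% in Ncoa5+/-Tip30+/- livers, against 4.96% to 5.81% in Tip30+/- and 5.04% to 5.65% in wild-type livers. The 6 lowest shares were all in livers with the Ncoa5 deletion, and the part of this in the rise of the 8 genes was not tested. The summed markers of B cells, of macrophages and Kupffer cells, of endothelium and of stellate cells overlapped between the genotypes, no marker of these lists passed against wild type with limma on all livers, and no marker of any list was at 0 throughout a genotype. DESeq2 called 1 stellate cell marker in Ncoa5+/- livers, and without the 4 livers low in Zhx2 limma called 1 in Ncoa5+/- and 1 in Ncoa5+/-Tip30+/- livers. Of the macrophage and Kupffer cell markers, 4 had an unadjusted p below 0.05 in Ncoa5+/- and 1 in Ncoa5+/-Tip30+/- livers against wild type. Cholangiocyte markers summed to 198 to 365 in Ncoa5+/- and 202 to 406 in Ncoa5+/-Tip30+/- livers, against 144 to 719.5 in Tip30+/- and 114 to 227 in wild-type livers, with 0 of 4 passing with limma or edgeR and 1 with DESeq2 in Ncoa5+/-Tip30+/- livers against wild type. Among them Epcam averaged 58.7 ± 13.1 normalized counts in Ncoa5+/-, 54.1 ± 32.4 in Tip30+/- and 61.8 ± 27.7 in Ncoa5+/-Tip30+/- livers, against 24.4 ± 2.78 in wild-type livers (limma, adjusted p = 0.171, 0.596 and 0.0716). For Epcam every Ncoa5+/- and every Ncoa5+/-Tip30+/- liver was above every wild-type liver. Such a lack of overlap was found for 3.25% of tested genes in Ncoa5+/- and 4.7% in Ncoa5+/-Tip30+/- livers. The log2 difference from wild type was above 0 for 100% of the 4 markers in each group with the Ncoa5 deletion and for 50% in Tip30+/- livers. In Tip30+/- livers Sox9 averaged 78.5 ± 24.3 against 87.9 ± 23.7 in wild type. Krt19 averaged 146 ± 209 there and reached 459 in its highest liver.

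The 8 genes were higher in both ranges of mouse number. Among mice numbered below 4300, the log2 differences of Ncoa5+/- from wild type ran from 1.37 for Sesn2 to 4.96 for Phlda3, and among the others from 0.93 for Mdm2 to 5.25 for Phlda3 (2 mice a group in each range). Leaving out the 4 livers low in Zhx2 left 2 Ncoa5+/- and 2 wild-type livers, and 3 of the 10 genes then passed (Cdkn1a, Phlda3 and Ccng1). Mdm2 was then at 0.82 (adjusted p = 0.215), Btg2 at 1.58 (0.0991), Plk2 at 1.82 (0.114), Trp53inp1 at 1.11 (0.149) and Sesn2 at 0.64 (0.482), all in the same direction.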

How the data were processed

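Polyadenylated RNA from a frozen piece of liver was sequenced in 16 female mice. Per the submitters' processing notes, Trimmomatic 0.36, STAR 2.6.0c and DESeq2 1.28.1 were used with GRCm38. The counting program, annotation release and use of strand do not appear in the sources used here. The deposited signal values are counts per gene that the authors divided by a size factor per library. All values in each library were whole multiples of 1 step (tolerance 1e-04), which gave back whole reads.

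The 10 genes and the lists were chosen with earlier results of these data known. Differences come from limma 3.58.1 in R 4.3.3, with trend and robust moderation, fitted to log2(value + 1), in 1 model of 4 genotype means over 16 libraries, for 15263 genes with a mean of at least 10, 2-sided, Benjamini-Hochberg adjusted within a comparison. The threshold was an adjusted p of 0.05, and where no tool is named the p is limma's. A fold is the power of 2 of the fitted difference and slightly understates low genes. Named from each list were up to 4 genes that passed against wild type, or else 2 of smallest p. Of cell type markers, those that passed were named, and also Epcam, Sox9 and Krt19, which did not pass and were named with their values known. Genes named from Ncoa5+/-Tip30+/- against Tip30+/- livers, and Zhx2, were named with their values known. No 2 libraries were copies of each other. Alternatives were edgeR 4.0.16 (quasi-likelihood) and DESeq2 1.42.0 on the recovered reads, TMM and upper-quartile scaling, pseudocounts of 0.5 and 5, no minimum or a mean of 50, the 2 groups alone, a mouse number covariate (below 4300 or not), leaving out the 4 livers low in Zhx2, and leaving out each liver. The chain was tested on simulated data.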

Additional observations from a re-analysis of the deposited data

Results flagged for a closer look

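A liver stood apart from the other 3 of its genotype in 3 of the 40 sets of 4 livers examined (10 genes in 4 genotypes), by a gap over range above Dixon's 95% critical value of 0.829. Chance flags about 1 set in 20, and sets of different genes share the same livers. The gap was taken on normalized counts. Log2 values, which draw a high value closer to the others and were used in the tests, were not examined in this way. Phlda3 was at 4371.3 normalized counts in Ncoa5+/- liver 1, with a gap of 0.971 of the range. Btg2 was at 1655.7 in the same liver, with a gap of 0.855. Sesn2 was at 1130.1 in Ncoa5+/-Tip30+/- liver 3, with a gap of 0.86. The differences of Phlda3 and Btg2 between Ncoa5+/- and wild-type livers passed without Ncoa5+/- liver 1 as well, and that of Sesn2 between Ncoa5+/-Tip30+/- and wild-type livers did not pass without Ncoa5+/-Tip30+/- liver 3 (log2 difference 0.81, adjusted p = 0.0717).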

How the results depend on the processing

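No paired analysis was possible because replicate numbers were given in accession order and pair no mice. The 10 genes gave 8 calls in Ncoa5+/- against wild type, except 7 with the 2 groups alone, 3 without the livers low in Zhx2 and 6 to 8 with 1 liver left out. Calls were 6 to 9 in Ncoa5+/-Tip30+/- against wild type and 6 to 8 against Tip30+/- under all alternatives. In the remaining 3 comparisons no alternative gave a call among the 10. Cdkn1a, Phlda3 and Ccng1 passed in all 19 alternatives of each contrast with the Ncoa5 deletion. Only Trp53 changed sign in those contrasts: against wild type it was at 0.022 in Ncoa5+/- and 0.032 in Ncoa5+/-Tip30+/- livers with upper-quartile scaling, and at 0.072 in Ncoa5+/- livers without the livers low in Zhx2. With 1 liver left out it ran from -0.057 to 0.017 in Ncoa5+/- and -0.077 to 0.014 in Ncoa5+/-Tip30+/- livers against wild type, and from -0.034 to 0.081 in Ncoa5+/-Tip30+/- against Tip30+/- livers.

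Counts over all tested genes moved more. DESeq2 gave 251 genes for Ncoa5+/- against wild type (85 with limma), 1076 for Ncoa5+/-Tip30+/- against wild type (407), 1177 against Tip30+/- (469), 43 for Tip30+/- against wild type (2), 33 for Ncoa5+/-Tip30+/- against Ncoa5+/- (3) and 1 for the interaction (0). The 2 groups alone gave 56, 107 and 9 for Ncoa5+/- against wild type, Ncoa5+/-Tip30+/- against wild type and against Ncoa5+/-. Without the livers low in Zhx2 these were 29, 121 and 1, and Tip30+/- against wild type had 6. The mouse number covariate gave 697 for Ncoa5+/-Tip30+/- against wild type and 1344 against Tip30+/-. With 1 liver left out the counts were 45 to 88 for Ncoa5+/- against wild type, 88 to 846 for Ncoa5+/-Tip30+/- against wild type, 107 to 764 against Tip30+/-, 1 to 2 against Ncoa5+/- and 1 to 8 for Tip30+/- against wild type. The cause was not tested.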
